A study of Mus musculus with 2 samples.

Results

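Bidirectional promoter regions are stretches of open chromatin that serve the start sites of protein-coding genes on opposite DNA strands. They were taken from ATAC-seq, which marks accessible DNA by inserting sequencing adapters with a transposase, in mouse blood neutrophils. Overlapping peaks of the list that both replicates support were merged, which gave 24882 regions from 33147 listed peaks. A region was kept when its summit lay within 1 kb of annotated start sites of at least 2 protein-coding genes on opposite strands. The rule set no limit on the height of a peak, although the highest listed peak gave a merged region its summit. It found 1241 regions. They held 2263 of 21911 protein-coding gene symbols, or 10.3%, and 1121 different gene pairs, since 116 pairs had 2 regions and 2 pairs had 3. The other regions were 6177 CpG-rich and 3237 not CpG-rich promoters of protein-coding genes, 989 promoters of noncoding genes only and 13238 distal regions.

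The series has a single group, 2 biological replicates of primary neutrophils. The cells were taken from peripheral blood, and the donors were adult C57BL/6J mice aged 5 to 6 weeks, with no treatment or genetic change named. Each library was made from 50000 cells, both carry the same donor record, and nothing says that the cells came from separate mice, so the spread between them may be technical. Sequencing depth is unknown, because no read counts were used. Each replicate has its own list of 34409 and 18367 peaks, the second being the shorter. Of 10 neutrophil marker promoters, 8 were open in the list of both replicates, 9 in replicate 1 and 3 in replicate 2, and the granulocyte marker Ly6g was closed in all 3 lists. All 5 B cell markers were open in that joint list, 5 in replicate 1 and 3 in replicate 2, whereas 1 of 5 T and NK cell markers, 0 of 4 monocyte markers and 2 of 5 erythroid and platelet markers were open. The part that other cell types have in the results was not tested. With 1 group of 2 replicates no test over samples was possible, so classes of regions stand side by side in each replicate, their differences were not tested, and regions are not counted as replicates. Intervals are 95% Wilson intervals, the limit given beside a count of 0 is instead the share that 3 counts would make, and both cover counting error only.

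In a bidirectional promoter 2 genes are transcribed away from each other from a shared nucleosome-free stretch, each strand with its own RNA polymerase II complex. Such promoters are mostly CpG islands without a TATA box, and in mammals they are known to serve housekeeping genes of DNA repair, mitochondria and the cell cycle more than tissue-specific genes. Mature blood neutrophils no longer divide, have few active mitochondria, and depend largely on glycolysis.

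Spacers between divergent start sites show what these shared stretches are made of. The spacers of 8 named pairs follow, read from the RefSeq sequence of GRCm38 (mm10) on the plus strand, so that the second gene of each pair is transcribed to the right of the sequence and the first to the left from its reverse strand. None of them holds an annotated exon. Capitals mark matches to the fixed strings searched. The first 5 were chosen from the strongest regions and the DNA repair and mitochondrial lists to show CCAAT on either strand, the string of ZNF143 and THAP11 and that of ETS factors (CCGGAAGT). Atp5c1/Kin shows a strong region whose spacer holds none of the strings, and the last 2 are spacers between histone genes.
Zbtb6/Rabgap1: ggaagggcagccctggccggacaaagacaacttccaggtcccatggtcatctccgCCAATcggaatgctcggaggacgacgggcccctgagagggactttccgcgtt
Pms1/Ormdl1: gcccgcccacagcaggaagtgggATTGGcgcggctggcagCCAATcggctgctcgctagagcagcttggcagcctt
Cep128/Tshr: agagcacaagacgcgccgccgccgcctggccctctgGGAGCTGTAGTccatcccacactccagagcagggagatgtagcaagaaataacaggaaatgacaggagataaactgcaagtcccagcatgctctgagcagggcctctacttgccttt
Mrpl50/Zfp189: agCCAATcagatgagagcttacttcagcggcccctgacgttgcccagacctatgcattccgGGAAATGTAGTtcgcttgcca
Trip4/Csnk1g1: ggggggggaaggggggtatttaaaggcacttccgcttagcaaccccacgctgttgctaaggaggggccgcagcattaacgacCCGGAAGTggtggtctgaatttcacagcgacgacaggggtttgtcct
Atp5c1/Kin: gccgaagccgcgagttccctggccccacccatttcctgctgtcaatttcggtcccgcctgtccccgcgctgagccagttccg
Hist1h2an/Hist1h2bp: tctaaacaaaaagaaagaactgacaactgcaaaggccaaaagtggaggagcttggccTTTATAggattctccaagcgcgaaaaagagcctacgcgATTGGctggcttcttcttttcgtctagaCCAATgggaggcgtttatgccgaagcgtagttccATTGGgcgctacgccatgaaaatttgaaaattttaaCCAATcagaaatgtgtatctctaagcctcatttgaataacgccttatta
Hist1h2ac/Hist1h2bc: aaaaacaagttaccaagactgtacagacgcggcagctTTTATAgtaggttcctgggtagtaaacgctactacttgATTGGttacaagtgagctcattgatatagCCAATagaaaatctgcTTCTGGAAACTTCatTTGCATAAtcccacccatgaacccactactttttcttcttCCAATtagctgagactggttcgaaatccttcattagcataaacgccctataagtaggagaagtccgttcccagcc

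The spacers lie at chr2:37443172-37443278 (Zbtb6/Rabgap1), chr1:53297019-53297094 (Pms1/Ormdl1), chr12:91384410-91384562 (Cep128/Tshr) and chr4:49521094-49521175 (Mrpl50/Zfp189). Those of the other pairs lie at chr9:65908795-65908923 (Trip4/Csnk1g1), chr2:10080511-10080592 (Atp5c1/Kin), chr13:21787219-21787460 (Hist1h2an/Hist1h2bp) and chr13:23683949-23684198 (Hist1h2ac/Hist1h2bc). In Zbtb6/Rabgap1 the CCAAT match starts at base 56 and the summit is base 67 of the spacer. Pms1/Ormdl1 has CCAAT matches at bases 24 and 41 and its summit at base 60. The summit of Mrpl50/Zfp189 is base 60 too, next to the ZNF143 and THAP11 string at base 62. The 6 spacers outside histone genes had a GC share of 53.7 to 67.1%, and both histone spacers were lower, at 42.6% and 41.6%.

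Most of the pairs were arranged back to back. In 1057 of 1241 regions, or 85.2% (83.1 to 87.0), the nearest start sites pointed away from each other, and in 184, or 14.8%, they overlapped, so that the transcripts run into each other's promoter. The divergent start sites were close, with a median of 138 bases between them (quartiles 74 and 292, range 0 to 1396). In 3 regions the spacing was 0, so that the start sites were neighbouring bases: Slc7a6os/Prmt7, Arfrp1/Zgpat and Bag4/Lsm1. The longest were Ccdc173/Phospho2 at 1396 bases, Ranbp1/Trmt2a at 1278 and Samd4b/Gmfg at 1219, in both of its regions. The plot of spacing shows a peak below 200 bases and a long, thin tail on either side. These counts depend on the choice of start site: with only the 5'-most site of each gene, 1114 of the regions met the rule and 63.8% of them were divergent. At least 3 protein-coding genes lay within the window in 44 regions, 24 regions were on chromosome X, and none of 1241 was on chromosome Y, which allows a share of up to 0.242%. No share of all regions on X or Y stands beside these counts, so they show nothing particular to bidirectional regions.

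**Figure D1:**
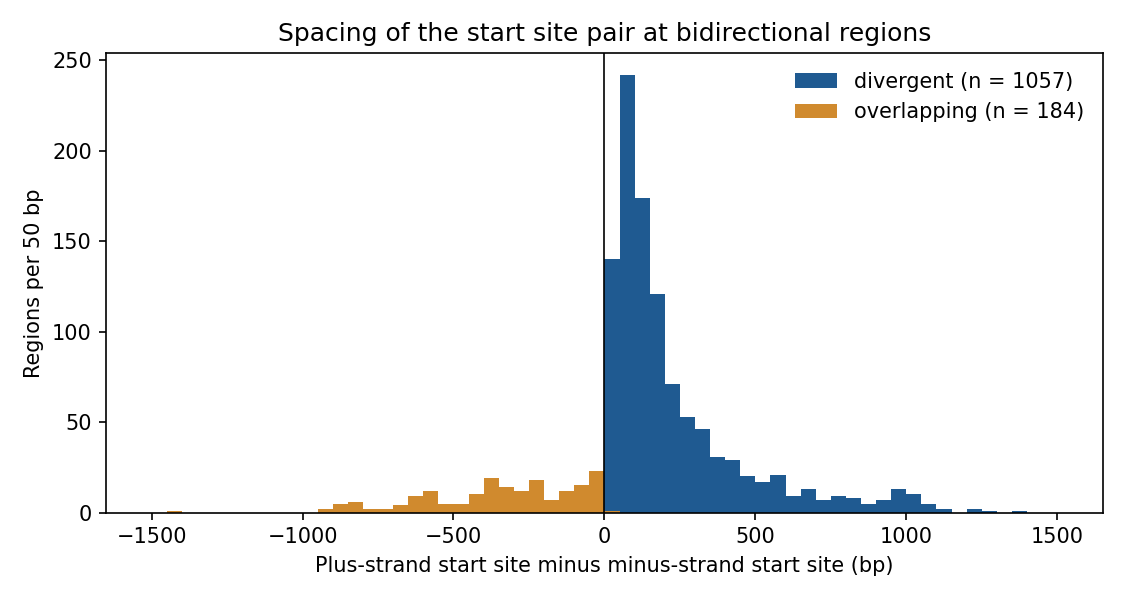
Spacing of the nearest start site pair at the 1241 bidirectional regions, in bins of 50 bp; the x axis is the plus-strand minus the minus-strand start site in bp, so divergent pairs (1057) lie right of 0 and overlapping pairs (184) left of it, and the y axis counts regions. Divergent pairs pile up at short spacings, with a median of 138 bases.

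Most summits sat between the divergent sites. The summit was between the sites in 766 of 1057 divergent regions, or 72.5% (69.7 to 75.1). Over all divergent regions it was a median of 34 bp from the nearer and 113 bp from the farther site. On each strand the site nearest to the summit within 1 kb was taken, so these distances are short partly by the rule. The summit was no more often nearer to the plus-strand site (517 regions) than to the minus-strand site (534). In the 1080 regions found in both replicates, the summits of the 2 libraries were a median of 12 bp apart. Where the sites were less than 100 bases apart, 81.6% of summits lay within 50 bp of the midpoint, and 93.5% lay within 100 bp of a site. At that spacing any summit between the sites meets both limits, so part of the fall at wider spacings is set by distance. From 300 to under 500 bases only 11.2% were within 50 bp of the midpoint and 75.2% were within 100 bp of a site, and at 500 bases or more the shares were 2.31% and 66.2%. In the plot of summit position the points at wide spacing follow the line of either site and leave the middle thinly filled. With only the 5'-most sites, 58.4% of summits of divergent regions were between the sites and the median spacing was 129 bases.

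**Figure D2:**
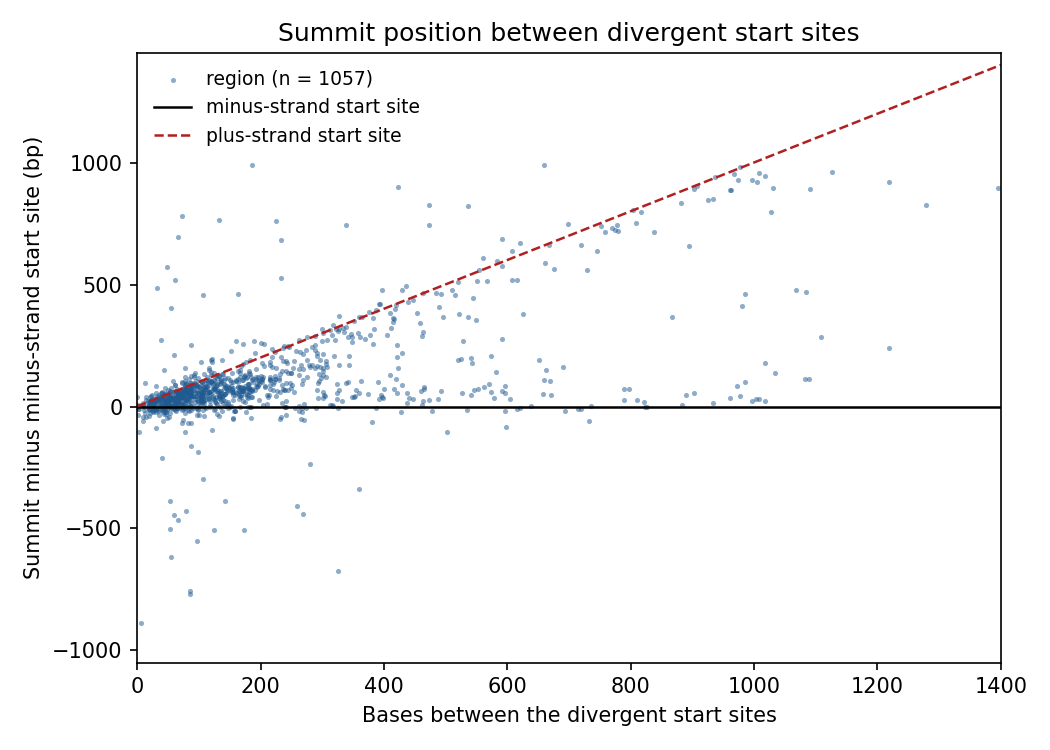
Summit position in the 1057 divergent regions: the x axis is the number of bases between the sites, the y axis the distance from the minus-strand site to the summit in bp, and each point is a region. The solid line at 0 is the minus-strand site and the dashed line the plus-strand site; 766 summits lie between the lines, and at wide spacing most lie along either line.

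The open region usually spanned both sites. It covered both in 870 of 1057 divergent regions, or 82.3%, and in 91 of 184 overlapping ones, or 49.5%. Over all 1241 regions, 221 covered a single site and 59 covered neither. From 100 to under 200 bases 97.3% of regions covered both sites, against 86.4% from 200 to under 300, 64.8% from 300 to under 500 and 21.5% at 500 or more. Of the 187 divergent regions that did not cover both, 88 had both sites open in 2 separate regions, 85 had a single site open and 14 neither. Over all divergent regions, the share with 2 or more listed peaks had no trend with spacing: it was 52.6% under 100 bases, 50.5% from 100, 50.4% from 200, 59.2% from 300 to under 500 and 45.4% at 500 or more. Among regions that covered both sites it was 54.3%, 51.6%, 52.8%, 77.8% and 100% in the same order. Such regions have to be wide where the sites are far apart. In 45 of the 81 regions that covered both sites at 300 to under 500 bases, or 55.6%, a listed summit lay within 100 bp of each site. The share was 50.3% under 100 bases, 28.3% from 100, 23.1% from 200 and 46.4% at 500 or more. Under 200 bases a single summit can lie that near to both sites. In overlapping pairs the summit was upstream of the plus-strand gene in 82 regions and upstream of the minus-strand gene in 60, and lay in the shared stretch in 42.

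Peaks were lower at the widest spacings and at overlapping sites. Divergent regions spaced 100 to under 200 bases had a median signal value of 15.6, the deposited score of a peak, whose definition the sources used here do not give. Their medians were 13.9 in replicate 1 and 15.2 in replicate 2. The joint medians were 14.8 under 100 bases, 15.3 from 200 and 14.3 from 300 to under 500, with no trend among these spacings. Regions at 500 bases or more had 11.1, with 10.2 and 11.8, and regions with overlapping sites had 12.4, with 11.3 and 13.5. Of the regions at 500 bases or more 63.1% were CpG-rich, that is of high GC share and CpG ratio, against 86.4 to 89.0% at shorter spacings, and the part of this in the signal value was not tested. Pairs with 2 regions count with both, at median signal values of 13.0 for the stronger and 7.36 for the weaker. Their part in these medians was not tested either. The median widths at 100 to under 200 bases, at 500 or more and at overlapping sites were 665, 533 and 583 bp.

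Most bidirectional regions were found in both libraries. Replicate 1 had 1209 of 1241, or 97.4% (96.4 to 98.2), and replicate 2 had 1096, or 88.3% (86.4 to 90.0), beside 91.9% and 57.2% of all merged regions. Both had 1080, or 87.0% (85.0 to 88.8), against 83.7% (82.8 to 84.6) of other CpG-rich promoters, 58.4% of promoters not CpG-rich and 56.5% of all regions. In replicate 1 alone there were 129, in replicate 2 alone 16, and in neither 16. With the less strict list of each replicate 99.2% were in both, beside 93.9% of all regions.

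They were wide and high among the open regions. Their median width was 640 bp, against 596 bp at other CpG-rich promoters, 439 bp at promoters not CpG-rich and 344 bp at distal regions. Their median signal value was 14.2, against 13.5, 10.7 and 10.3 in the same order. In regions found in both replicates the width was 622.5 bp in replicate 1 and 549 bp in replicate 2, against 570 and 503 bp at other CpG-rich promoters, so it was larger within each replicate, although the libraries differ by more than the classes do. The signal value over these regions was 14.0 ± 0.615 (SD, n = 2) against 13.4 ± 0.691, a difference close to the spread between replicates, with the bidirectional median higher within each (13.6 against 12.9, and 14.5 against 13.9). When all 24882 regions were ranked by signal value and cut into 10 equal groups, bidirectional regions made up 2.85% of the lowest and 10.4% of the highest group, and other CpG-rich promoters 17.2% and 44.8%.

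Bidirectional regions were mostly rich in CpG. Of the bidirectional regions 1052, or 84.8% (82.7 to 86.7), were CpG-rich, which here means an observed-to-expected CpG ratio of 0.6 or more with GC of 50% or more within 500 bp on either side of the summit. Over all regions 30.9% were CpG-rich, with 19.4% of promoters of noncoding genes and 1.99% of distal regions, while the other coding promoters were divided by this very measure. The median GC share of bidirectional regions was 59.5%, beside 60.3% at other CpG-rich promoters, which are GC-rich by definition. The CpG-rich bidirectional regions alone had a median width of 665 bp and a signal value of 14.6, with 13.3 in replicate 1 and 14.7 in replicate 2, against 12.3 and 13.8 at the other CpG-rich promoters. When all coding promoters were split into 5 groups of rising GC share, bidirectional regions had the higher median signal value in each group and replicate. The gap was smallest in the group of lowest GC in replicate 2, at 12.8 against 12.5, and in group 4 the medians were 13.5 against 11.8 in replicate 1 and 14.8 against 13.6 in replicate 2. The plot by GC group shows the lines of the classes running side by side without crossing.

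**Figure D3:**
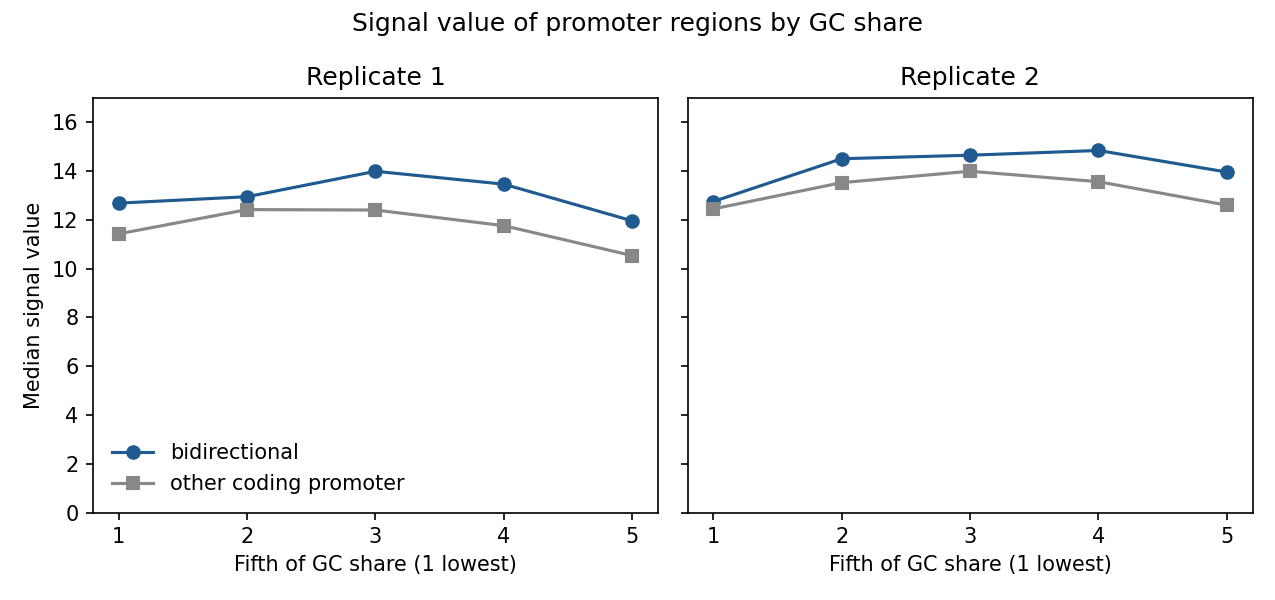
Median signal value (y axis, a deposited score without a unit) of bidirectional and other coding promoter regions in GC groups of about equal size, by GC share within 500 bp of the summit (x axis, 1 is lowest), drawn for each replicate. The bidirectional line lies above the other in all 5 groups of both replicates.

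The highest region was that of Oip5/Nusap1, at chr2:119618364-119618804, which reached 28.2 in the joint list and 25.4 and 27.1 in replicates 1 and 2, rank 21 among all regions. Oip5 is a factor of centromere licensing and Nusap1 a spindle protein, so both are genes of mitosis. Pdzd11/Kif4 followed at 26.5 (25.03 and 20.8 in replicates 1 and 2), an overlapping pair in which Kif4 encodes a chromosome-bound kinesin. Zbtb6/Rabgap1 had 26.5 (22.9 and 22.4) and Cep128/Tshr 26.3 (23.9 and 24.8). Cep128 is a centriole protein, whereas Tshr is the thyrotropin receptor of the thyroid. Another of the 10 highest likewise joined a widely used gene to a receptor gene known from other tissues: Vta1, of endosomal sorting, with Nmbr, the neuromedin B receptor, had 25.4 (22.6 and 23.3). The remaining 5 were Mrps30/B430218F22Rik, Sclt1/D3Ertd751e, Trappc11/Rwdd4a, 2610002M06Rik/Tent5d and Trip4/Csnk1g1, at 25.1 to 25.9. All 10 were in both replicates.

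The 5 lowest regions had signal values from 1.93 to 4.22. The 3 lowest were side intervals of a strong neighbour. At 1300017J02Rik/Topbp1 an interval of 170 bp with a signal value of 1.93 lay 109 bases from a region with 21.2. Surf1/Surf2 had 165 bp and 2.09, next to a region with 13.0, and Tatdn1/Ndufb9 had 224 bp and 2.28, next to a region with 17.6. None of the 3 was in replicate 1, and their high values in replicate 2 (19.3, 12.8 and 17.1) belong to regions there that reach over from the neighbour. They also had no match in the authors' less conservative joint list, which matched 1235 of the 1241 regions. Tmc6/Tmc8 (3.21), whose genes encode membrane channel-like proteins, was in the list of neither replicate, and Mepce/Zcwpw1 (4.22) was in replicate 1 alone, at 4.21. The widest region, Slc30a7/Extl2, ran over 1766 bp with 6 listed peaks, had a signal value of 7.92 and was in neither replicate's own list.

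Divergent gene pairs can also be taken from the annotation alone, so that closed pairs count. Of 754 pairs whose 5'-most start sites pointed away from each other with at most 1000 bases between them, 657 had an open region in the list of both replicates, or 87.1% (84.6 to 89.3). Replicate 1 had 654 (86.7%), replicate 2 had 624 (82.8%), and 616 were open in each (81.7%). CpG-rich pairs were open in 583 of 626 cases, or 93.1% (90.9 to 94.9), and other pairs in 74 of 128, or 57.8% (49.2 to 66.0). In pairs under 300 bases apart the sites were open or closed together: both lay under a region in 540 of 618, neither in 71 and a single site in 7, or 1.13% (0.550 to 2.32). At 300 bases or more a single site was open in 38 of 136, or 27.9% (21.1 to 36.0), the minus-strand site in 20 and the plus-strand site in 18. Close sites fall under the same peak by their distance, so these shares also carry the width of the regions.

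Genes of these pairs had open start sites more often than other genes of the same CpG class. A gene counted as open when a region came within 250 bp of its 5'-most site. Among CpG-rich genes, 1131 of 1224 paired genes were open in replicate 1 and 1085 in replicate 2, a mean of 90.5% ± 2.66 (SD, n = 2). For the 8514 unpaired ones it was 63.3% ± 4.55, and over all CpG-rich genes the replicates had 69.7% and 63.6%. Among genes not CpG-rich, 54.4% ± 3.76 of 263 paired and 12.6% ± 3.07 of 11937 unpaired genes were open, with 15.6% and 11.3% over all such genes. Both differences were larger than the spread between replicates, and the plot of paired and unpaired genes shows that the replicates of each group lie close together. A window around a paired gene often also holds the site of its partner, so it is open when either gene's promoter is. With a region required over the site itself, a choice made after the data were seen, 90.0% and 86.4% of CpG-rich paired genes were open in replicates 1 and 2, against 62.8% and 56.8% of unpaired ones. A region at the partner's site can cover a close site too, so this choice does not separate the genes of a pair either.

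**Figure D4:**
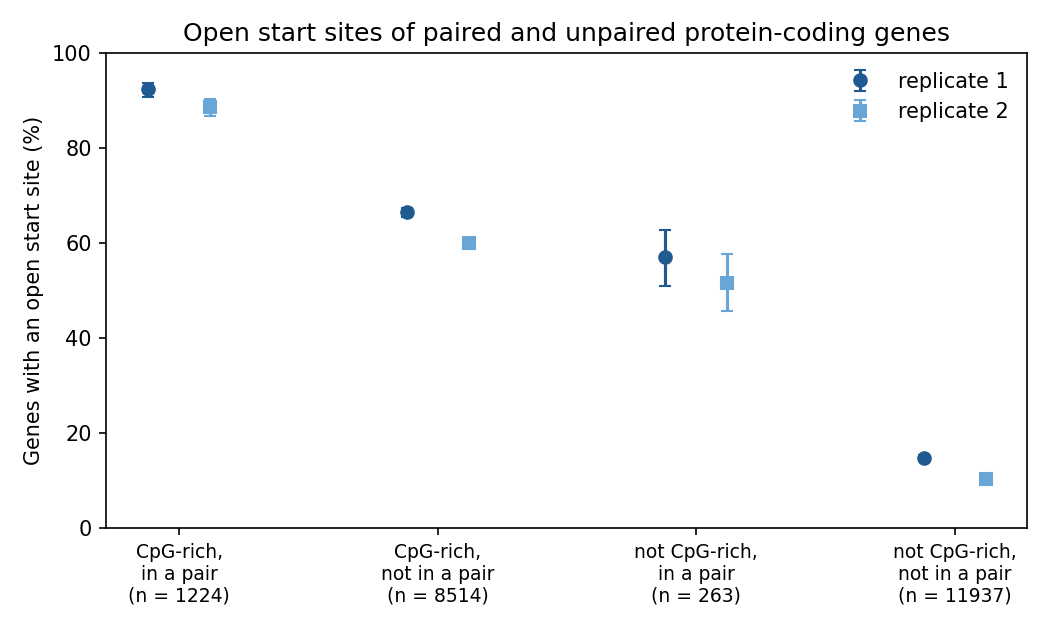
Share of protein-coding genes with an open region within 250 bp of the 5'-most start site (y axis, percent), by CpG class and by membership of an annotated divergent pair (x axis), with 1 point per replicate and bars for the 95% Wilson interval, which is smaller than the symbol in the larger groups. Paired genes lie above unpaired genes of the same CpG class in both replicates, 92.4% and 88.6% against 66.5% and 60.1% for CpG-rich genes.

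The joint list and both replicates' own lists lacked a region in 89 pairs. In 66 of them, of which 22 were CpG-rich, the less strict lists of the replicates had none either. These are called closed here, which refers to the pair of 5'-most sites and not to every start site of its genes. In 27 of them at least 1 gene had a region summit within 1 kb of some start site of its own, and in 39 neither gene did. A gene of the functional lists was in 7 closed pairs. Hist1h2ba/Hist1h2aa, the pair of testis histones, had no such summit at either gene, and nor did Col4a4/Col4a3, which encode type IV collagen chains of specialised basement membranes, and Eme2/Mrps34, with a gene of the mitochondrial ribosome. In Pinlyp/Xrcc1, Rad51c/Tex14 and Ndufa5/Asb15 both genes had a summit within 1 kb of a start site, and in Rnf151/Rps2 the ribosomal protein gene did. Xrcc1, Rad51c and Ndufa5 are also counted at bidirectional regions, whose rule takes every annotated start site. Among the others, the imprinted pairs Sgce/Peg10 and Peg3/Usp29, whose genes are expressed from the paternal allele in mouse, were CpG-rich and had no region summit within 1 kb of any start site. These 2 pairs are named after their values were seen.

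Lists of widely used cell machinery had larger shares of their genes at bidirectional regions than protein-coding genes had as a whole, and the neutrophil lists had no gene there. Of all protein-coding genes 10.3% (9.93 to 10.7) lay at such a region. The plot of gene lists shows that 11 of 16 functional lists were above this share and 5 had no member there. A region summit lay within 1 kb of a start site for 46.3% of all protein-coding genes, and 22.3% of those were at a bidirectional region. In the 11 lists 87.7 to 100% of genes had such a summit, so 22.3% is the nearer comparison. Counting only genes with a summit, 9 of the 11 lists were above it, while cytosolic ribosome had 19.7% and purine and pyrimidine synthesis 18.8%. Among the 9, some had an interval, over all genes of the list, that includes 22.3%. These were DNA replication (17.7 to 43.4), mitosis (18.1 to 40.8), chaperones and proteasome (21.3 to 44.2) and aminoacyl-tRNA synthetases (15.4 to 43.0). The lists were chosen with earlier results known, and their shares are descriptions.

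**Figure D5:**
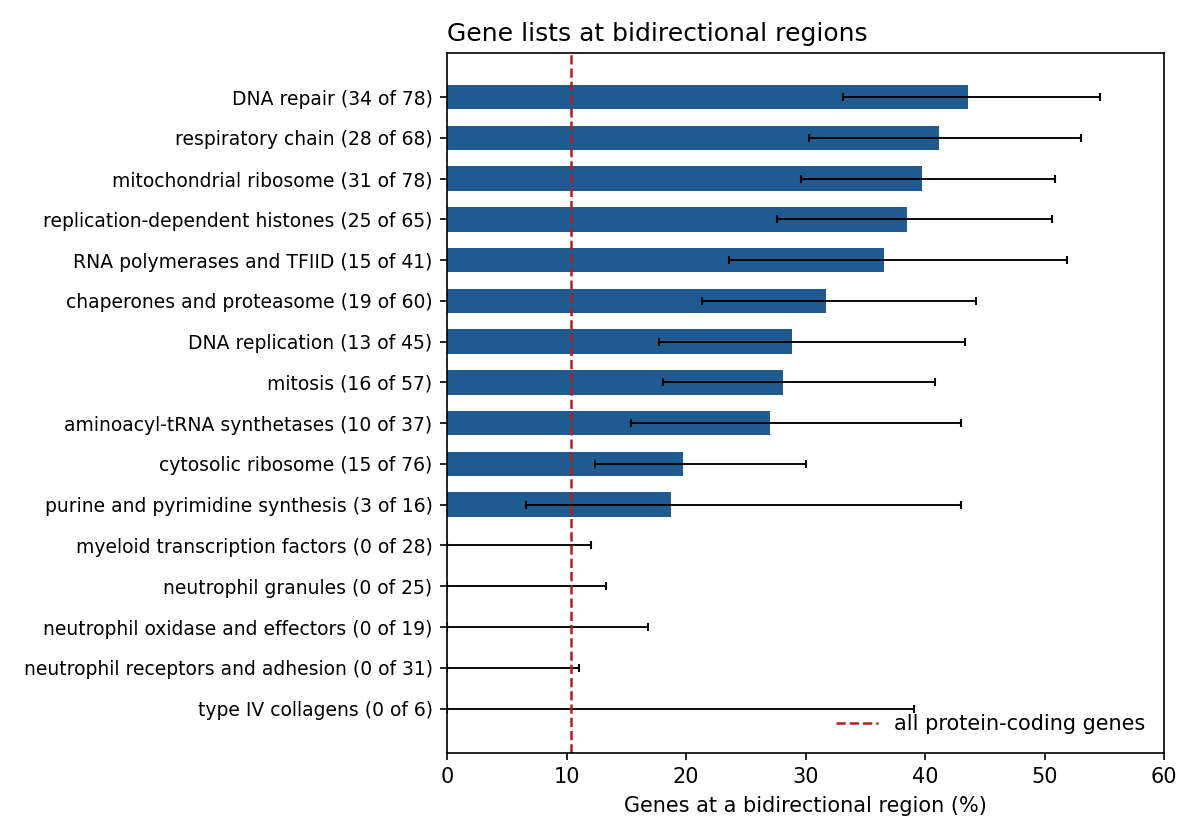
Share of the genes of each list that lie at a bidirectional region (x axis, percent), with the count of genes beside the name, 95% Wilson intervals as bars and the share of all protein-coding genes, 10.3%, as a dashed line. Lists of DNA repair, the respiratory chain and the mitochondrial ribosome lead, and the 4 neutrophil and myeloid lists and type IV collagens have 0 genes.

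DNA repair genes led with 34 of 78, or 43.6% (33.1 to 54.6), and 77 of the 78 were open at a promoter. Ankrd49/Mre11a, with the nuclease that trims broken ends, reached 24.9 (22.9 and 22.6 in replicates 1 and 2). Xrcc4/Tmem167, with the partner of the ligase that joins ends, had 24.8 (22.1 and 23.4). Pms1/Ormdl1, with a mismatch repair gene, had 23.8 (20.6 and 22.3). DNA replication had 13 of 45 genes, or 28.9%, among them the origin recognition subunit Orc1, paired with Prpf38a at 22.7 (21.4 and 19.2), and Rpa3, of the single-strand binding complex, paired with Umad1 at 21.2 (18.6 and 21.5). Mitosis had 16 of 57, or 28.1%, with Cenpq/Mut, of a centromere protein, at 24.1 (21.3 and 21.5) and Cdca8/9930104L06Rik, of the chromosomal passenger complex, at 23.2 (22.0 and 19.7). Openness is not a measure of transcription. Promoters of all 5 B cell markers were open too, and the part of other cells in these values was not tested.

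Mitochondrial genes came next. The respiratory chain had 28 of 68 genes, or 41.2% (30.3 to 53.0). Fam126b/Ndufb3, with a complex I subunit, had 20.9 (19.2 and 16.1 in replicates 1 and 2), and Atp5c1/Kin, with a subunit of ATP synthase, had 20.5 (17.1 and 22.0). The mitochondrial ribosome had 31 of 78, or 39.7% (29.6 to 50.8). Mrps30/B430218F22Rik had 25.9 (22.8 and 24.6) and Ptcd2/Mrps27 23.2 (20.1 and 22.5). Both genes of Mrpl46/Mrps11 belong to that ribosome, the first to its large and the second to its small subunit, and the region had 19.3 (17.6 and 15.9).

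Other lists of common machinery had smaller shares than the mitochondrial ones. RNA polymerases and TFIID had 15 of 41, or 36.6%, with Dzank1/Polr3f at 20.04 (18.2 and 18.8 in replicates 1 and 2) and Polr3c/Rnf115 at 18.9 (16.8 and 18.4). Chaperones and the proteasome had 19 of 60, or 31.7%. Hspd1/Hspe1, the mitochondrial chaperonin and its co-chaperonin, shared a region with 16.4 (15.5 and 14.1), and Dnajc2/Psmc2, of a ribosome-bound chaperone and a proteasome ATPase, 11.7 (9.91 and 13.4). The aminoacyl-tRNA synthetases had 10 of 37, or 27.0%, and Hars/Hars2, the cytosolic and mitochondrial histidine enzymes, had 22.1 (20.7 and 16.5). Cytosolic ribosomal proteins had 15 of 76, or 19.7% (12.3 to 30.04), although all 76 were open at a promoter; the highest was Rpl9/Lias at 23.2 (20.6 and 21.9). Purine and pyrimidine synthesis had 3 of 16 (6.59 to 43.0%), an interval that includes the share of all genes, with Ppat/Paics, whose enzymes act in the same purine pathway, at 16.3 (14.7 and 16.6). In all, 19 regions held 2 genes of the same list.

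Genes that define the neutrophil were absent from these regions. None of 103 genes of the neutrophil granules, neutrophil receptors and adhesion, neutrophil oxidase and effectors, and myeloid transcription factors lay at a bidirectional region, which allows a share of up to 2.91%. A region summit lay within 1 kb of a start site for 73 of the 103, or 70.9%. Among granule genes it was 10 of 25, a smaller share than the 46.3% of all protein-coding genes, and the other 3 lists had 71.0 to 89.5%. For the 73 genes the count of 0 at bidirectional regions allows up to 4.11%, beside 22.3% of all protein-coding genes with such a summit. None of the 103 was in an annotated divergent pair either, beside 1487 of all 21938 protein-coding genes. The nearest upstream start site on the opposite strand was at least 7.64 kb away for the granule genes, 3.88 kb for the receptors, 14.8 kb for the oxidase list and 11.9 kb for the transcription factors, by 5'-most sites. The median distances were 43.0, 42.8, 51.0 and 100.5 kb in the same order, against 71.0 kb for all protein-coding genes. The lower quartiles were 26.0, 18.9, 29.5 and 27.4 kb, against 21.2 kb.

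Replication-dependent histone genes, whose transcripts are made in S phase, lay at bidirectional regions mostly as pairs of histone genes. Of 65 genes 25 lay at bidirectional regions, or 38.5% (27.6 to 50.6). In 13 regions both genes of the nearest pair were histones, from 12 pairs, and 11 of these pairs joined an H2a to an H2b gene while the other was Hist1h2bh/Hist1h3f, with 2 regions. All 13 were divergent and in both replicates. Signal values ran from 11.8 to 22.4, with a median of 14.9, and medians of 13.8 in replicate 1 and 14.1 in replicate 2. Hist1h2ah/Hist1h2bk was highest at 22.4 (21.5 and 15.7) and Hist2h2ac/Hist2h2be lowest at 11.8 (11.7 and 9.91). Histone genes are near-identical copies, so reads may be shared or lost between them and single values are uncertain.

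The histone spacers were unlike the others in letters. In the 11 regions with 60 to 400 bases between histone sites all had a CCAAT on either strand and 10 had 3 or more, against 272 and 62 of 679 other divergent regions of that spacing, or 40.1% and 9.13%. The histone sites were farther apart, with a median of 250 bases against 138, and longer spacers have more room for a string. Among the 175 other regions within the histone range of spacings, a choice made after the data were seen, 99 had a CCAAT and 37 had 3 or more, or 56.6% and 21.1%, and 4 had TATAAA. The TATA string TATAAA was in 6 of the 11 histone regions and in 13 of all 679 others, or 1.91%, and the median GC share between the sites was 42.6% against 63.6%, or 61.1% in the 175. The printed spacers of Hist1h2an/Hist1h2bp and Hist1h2ac/Hist1h2bc show this spacing of CCAAT boxes, with 4 and 3 of them. Some histone spacers are close copies of each other, and those of Hist1h2bq/Hist1h2ao and Hist1h2ap/Hist1h2br are nearly reverse complements. The 11 histone regions are therefore not independent counts. A match is a string of letters and not a bound site.

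Fixed strings were searched on both strands within 50 bp on either side of each summit. CCAAT, the core of the NF-Y site, was in 366 of 1241 bidirectional regions, or 29.5% (27.0 to 32.1), beside 28.1% (27.0 to 29.2) of other CpG-rich promoters, 17.3% of all regions and 10.4% of distal ones. With the summits of each replicate, bidirectional regions had 30.4% and 31.6% and the other CpG-rich promoters 28.4% and 30.4%, so the share was higher within each replicate, by about the spread between replicates. The replicates' summits lie in largely the same regions of 1 reference sequence, a median of 12 bp apart in bidirectional regions. Motif shares of the replicates are therefore not independent counts. ETS (CCGGAAGT) was in 7.90% against 6.75%, the NRF1 string in 4.19% against 4.65%, CRE (TGACGTCA) in 2.90% against 2.82%, and YY1 (AAGATGGC) in 2.42% against 2.07%, all with intervals that overlap. Over all regions these 4 strings were in 2.87%, 1.68%, 1.35% and 1.33%. The overlap for ETS depended on the window. In a wider window around the summit ETS was in 11.9% (10.24 to 13.85) against 9.42% (8.72 to 10.18), intervals that do not overlap. Those of CCAAT, NRF1, CRE and YY1 overlapped in the wider window too.

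Among these strings the values for ZNF143 and THAP11 and for SP and KLF factors (GGGGCGGGG) stood farther apart within 50 bp of the summit. The first was in 56 bidirectional regions, or 4.51% (3.49 to 5.81), and in 163 other CpG-rich promoters, or 2.64% (2.27 to 3.07), beside 1.49% of all regions. Promoters not CpG-rich had 3.37% (2.80 to 4.05), an interval that overlaps that of bidirectional regions. At the replicates' own summits it was 4.80% and 4.65% against 2.81% and 2.85%, counted in largely the same regions and sequence. In CpG-rich bidirectional regions alone it was 4.66% (3.54 to 6.10). The SP and KLF string was lower, at 8.78% (7.33 to 10.5) against 11.8% (11.0 to 12.6), with 4.61% of all regions. By replicate, again in largely the same regions, it was 7.69% and 9.58% against 10.9% and 13.3%, lower within each. The CpG-rich bidirectional regions had 9.32% (7.70 to 11.2), an interval that overlaps that of the other promoters.

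Strings of myeloid factors, AP-1 and CTCF were less frequent at bidirectional summits than over all regions. PU.1 (GAGGAAGT) was in 17 regions, or 1.37%, beside 1.30% of other CpG-rich promoters, 5.81% of promoters not CpG-rich and 6.15% of all regions. C/EBP (TTGCNNAA) was in 2.42% beside 2.33%, 5.59% and 5.08%, and AP-1 (TGANTCA) in 1.13% beside 1.26%, 4.45% and 4.74%. The CTCF string was in 1.61% beside 1.85%, 7.91% and 11.1%. RUNX (TGTGGTTT) was in 0 of 1241, which allows up to 0.242% by 3 counts and 0.309% by the Wilson interval, beside 0.259% of other CpG-rich promoters, 1.33% of those not CpG-rich and 1.64% of all regions. TATAAA was in 0.725%, beside 1.02%, 1.70% and 1.81%. For each of these strings the intervals of bidirectional regions and other CpG-rich promoters overlapped. The remaining strings are given with their share of other CpG-rich promoters and then of all regions. The E-box CACGTG was in 4.83%, beside 4.76% and 3.71%, and E2F TTTCCCGC in 0.645%, beside 0.583% and 0.253%. The CGCG element was in 1.13%, beside 0.874% and 0.285%, and the interferon element in 0.806%, beside 0.567% and 1.57%. The heat shock element was in 0.161%, or 2 regions, beside 0.0162% and 0.0482%. The intervals of these 5 strings overlapped between bidirectional regions and other CpG-rich promoters.

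Regions with CCAAT at the summit were higher than those without. Their median signal value was 16.1 against 13.1, with 14.6 against 12.1 in replicate 1 and 15.7 against 13.6 in replicate 2. The same held at other CpG-rich promoters, with 15.4 against 12.7, and 13.9 against 11.6 and 15.3 against 13.2 in the replicates. Regions with the ZNF143 and THAP11 string had 16.0 against 14.0, with 14.9 against 12.8 in replicate 1 and 15.9 against 14.2 in replicate 2. Other CpG-rich promoters with this string had 16.5 against 13.4. Bidirectional regions with ETS had 13.2 against 12.9 in replicate 1 and 13.3 against 14.5 in replicate 2, while other CpG-rich promoters with it were higher in both, at 13.9 against 12.2 and 14.3 against 13.8. Regions with the NRF1 string were lower, at 12.5 against 14.3, with 10.7 against 13.1 and 13.0 against 14.5, and at other CpG-rich promoters they had 12.5 against 13.5.

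At the edge of the rule, 71 regions had the farther site 800 to 1000 bp from the summit, with a median signal value of 9.96 and width of 436 bp. Another 38 regions would have met the rule with a limit of 1200 bp, with 10.1 and 465.5 bp.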

How the data were processed

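ATAC-seq peak lists of 2 libraries were used. They are on mm10 per the file headers, the build of the reference (RefSeq sequence of GRCm38.p6, GENCODE M21 start sites), and positions count from 1. No source used here names the aligner, the peak caller or their versions. The authors deposited for each peak a signal value, a score that no label or header defines, and a −log10 p, which entered no value here. The main list was the deposited conservative list of both replicates together, thresholded by irreproducible discovery rate (IDR); each replicate has an IDR list and a less strict pseudoreplicated list.

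Intervals sharing 1 bp were merged, and a region kept its highest signal value and that summit. A replicate's value is the highest of its overlapping regions. Python 3.11.15, pandas 2.3.3 and scipy 1.17.1 were used, and the region and motif steps were checked on simulated data. The 18 motif strings, the longer of which are given by name, were searched on both strands, and matches of different strings may overlap. The members and gene lists were chosen with earlier results of these data known; 730 of 731 listed genes matched the annotation. Named pairs were the 10 highest and 5 lowest signal values, the 3 widest, the 3 with most listed peaks, the 3 shortest and longest spacings, up to 5 regions with 3 or more genes, up to 3 pairs per gene list, pairs within a list and closed pairs with a listed gene. One pair that this rule names is not reported here. Alternatives were other windows, start sites, lists, overlaps and each replicate alone.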

Additional observations from a re-analysis of the deposited data

How the results depend on the processing

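Of 59 alternatives, 33 left a value within its replicate spread, its counting interval or 1.5 times its count, and 26 moved it further. Each value is a count, median or share without a comparison class. The differences from other promoters and from unpaired genes were therefore not repeated under these alternatives, except for motif shares in a wider window. There the SP and KLF string was in 16.4% (14.4 to 18.5) of bidirectional regions against 21.7% (20.7 to 22.8) of other CpG-rich promoters. The ZNF143 and THAP11 string was in 6.93% (5.65 to 8.48) against 4.24% (3.77 to 4.77). These intervals did not overlap, nor did those of ETS, while those of CCAAT, NRF1, CRE, YY1 and TATAAA did. The number of bidirectional regions stayed between 1013 and 1423 over 10 alternatives. Each replicate's list alone gave a median width of 539 to 590 bp, a median signal value of 12.6 to 14.1, and 2 or more listed peaks in 37.9 to 45.4% of regions; in the joint list the last share was 51.4%. Peaks at or above the median signal value gave 15.5 and 11.3% for signal value and listed peaks, since weak peaks are left out. With the 5'-most start sites the divergent share fell to 63.8%, the median spacing to 129 bases and summits between the sites to 58.4%; the rule then measures from other sites. Presence in both replicates was 84.1% with an overlap of at least 50% of the region, 99.2% with the less strict lists and 91.3% with 1 region per gene pair, which was added after seeing the data. Annotated divergent pairs were open in 82.8 to 86.7% with a single replicate. CpG-rich regions made up 87.3% when measured over a narrower window. Of 14 alternatives for 7 motif shares, 11 moved the share, all upwards, with wider windows or the spacer in place of the summit. No paired analysis was possible because there is 1 group of samples. Regions that the shorter list of replicate 2 lacks cannot be told apart from regions below its depth, which is unknown.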

Other observations

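Where a gene pair had 2 regions (116 pairs), the stronger had a median signal value of 13.0 and the weaker 7.36, with 659.5 bp between the summits. The 16 regions in neither replicate's own list had signal values from 3.21 (Tmc6/Tmc8) to 9.17 (F8/Fundc2), and each was in the less strict list of replicate 1. The start site of a noncoding gene also lay within 1 kb of 54 of the 1241 summits.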
